A study of Arabidopsis thaliana with 6 samples.

Results

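The genes of the mitochondrial genome of Arabidopsis thaliana were taken as every locus of the authors' deposited table whose identifier begins with ATMG, which gave 146 of 33557 loci. The tested seedlings carried the cbe1 mutation, with 3 libraries, and were set against wild-type Col0 seedlings, also with 3 libraries. Both groups were whole seedlings 7 days old, grown on MS plates with 1% sucrose under 16 h of light and 8 h of darkness, and poly(A) RNA was sequenced. The kind of mutation and the number of lines behind it are not given in the labels. CBE1, taken to be AT4G01290 from what is known of the study, encodes a partner of eIF4E, the translation factor that holds the mRNA cap. Its transcript stood at 4.48 FPKM in cbe1 and 13.8 FPKM in Col0, a log2 fold change of −1.62 (implied SE 0.20; q = 1.41e-12 in the authors' deposited table).

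Plant mitochondria keep a genome of their own for a small part of their proteins. It encodes core subunits of the respiratory complexes and of ATP synthase, factors that attach heme to cytochrome c, some ribosomal proteins, rRNAs and tRNAs, beside many open reading frames of unknown function; most mitochondrial proteins are encoded in the nucleus and imported. Mitochondrial RNAs are made by phage-type polymerases, and in plant mitochondria a poly(A) tail generally marks an RNA for degradation, so that most functional transcripts carry none. A poly(A) library therefore samples these transcripts in part. A lower value can mean less RNA per mitochondrion, fewer mitochondria per cell, fewer cells rich in mitochondria or a smaller share with a tail. It can also mean that less RNA without a tail was carried into the libraries. These cannot be told apart here.

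FPKM (fragments scaled to transcript length and library size) was deposited as 1 value per gene and group, so the spread between the 3 libraries of a group cannot be shown, and the depth of the libraries is unknown. The error given here, the implied standard error, is the size of the log2 fold change (cbe1 over Col0) divided by the authors' test statistic, and intervals are 95% normal intervals built on it. A gene was called when the authors marked it as tested and its q-value in their deposited table was below 0.05. Of the 146 mitochondrial loci 111 were tested, 34 were left untested for low signal and 1 was marked LOWDATA. Of the 146 loci 58 were known genes (respiratory, cytochrome c maturation, ribosomal, maturase, transport, rRNA or tRNA genes) and 88 were open reading frames or unnamed.

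Mitochondrial transcripts had lower FPKM in cbe1 across most of the genome, a direction that holds relative to the median gene and turns under TPM, as given below. Of the 111 tested, 95 had the lower value in cbe1 and 16 the higher; over all 22303 tested genes 31.1% had the lower value in cbe1. The authors' test called 18 of the 111 lower and 0 higher, where it called 4.94% of all tested genes, 1.63% lower and 3.31% higher. At an unadjusted p below 0.05, 34 mitochondrial genes were lower and 1 was higher, against 4.2% and 12.5% of all tested genes. The median log2 fold change of the 102 with a value above 0 in both groups was −1.20, where the nuclear median was 0.18 and the plastid median −0.03. A change of scale to TPM raises each gene's log2 fold change by 1.57 and so turns the mitochondrial median to 0.37, with the nuclear median at 1.75 and the plastid median at 1.54; the order of the genomes stays. That addition comes with AT2G01021, a short gene beside the nuclear rRNA genes on chromosome 2, which alone took 38.8% of summed FPKM in cbe1 and 72.2% in Col0. TPM computed over loci of 300 bases or more, an alternative chosen after seeing the data, added 0.04, and the mitochondrial median was then −1.16. All directions below are those of the deposited FPKM. Besides the scale, the median of 18450 genes with a mean of at least 1 FPKM was itself 0.17 above 0 on the log2 scale, and relative to it 26 mitochondrial genes were called lower, among them the same 18, and 0 higher (2.99% and 1.33% of all tested genes).

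**Figure D1:**
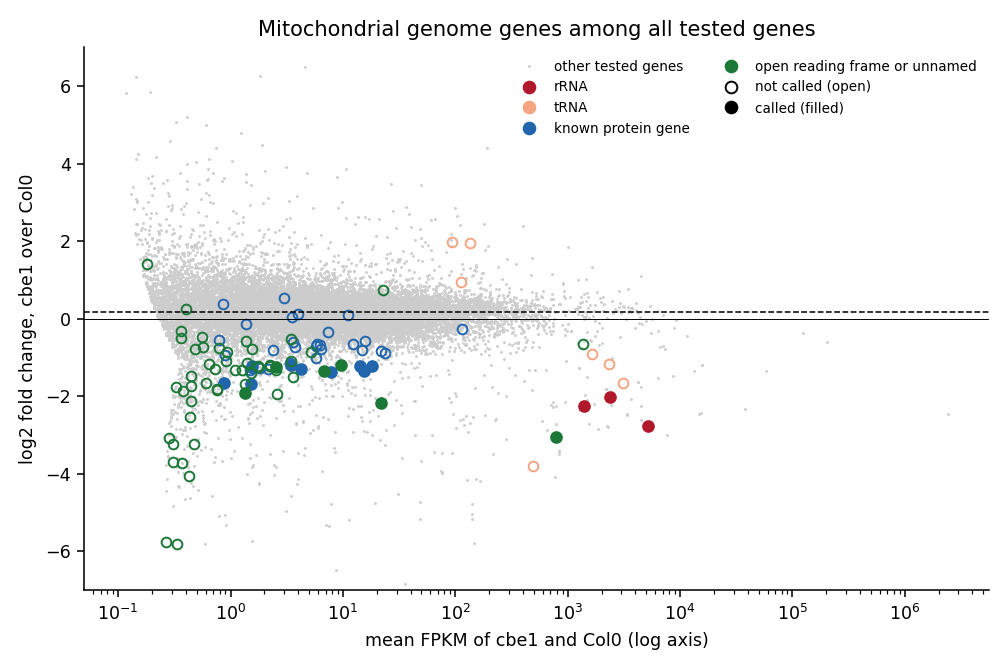
Log2 fold change (cbe1 over Col0, deposited FPKM) against the mean FPKM of both groups on a log axis; coloured points are mitochondrial genes with a value above 0 in both groups, filled where called, and grey points are the other tested genes. The dashed line marks the median gene at 0.17; the called mitochondrial genes lie below −1, and under TPM every point would shift up by 1.57.

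Loci under 300 bases and longer ones differed in precision and in how many had the lower value. Of 94 tested loci of 300 bases or more, 86 had the lower value in cbe1 and 17 were called lower, with a median log2 fold change of −1.21 and a median implied SE of 0.62. Among these, the interval lay below 0 for 33 loci, above 0 for 1, and held 0 for 59. Of 17 tested loci under 300 bases, 9 had the lower value in cbe1 and 8 the higher, and 1 was called. Their median, over the 9 with both values above 0, was −0.90 with a median implied SE of 2.14. The difference between short and longer loci was not tested. Over all genes under 300 bases, the median log2 fold change was −0.66.

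The 3 rRNAs, the structural RNAs of the mitochondrial ribosome, were each called lower, and their values lay far apart in the 2 groups. The large-subunit rRNA rrn26 (ATMG00020, mitochondrial genome 8848 to 11415, TAIR10) stood at 489 FPKM in cbe1 and 2333 FPKM in Col0, 4.77-fold lower (log2 −2.25, implied SE 0.33; q = 5.22e-09 in the authors' deposited table). The small-subunit rRNA rrn18 (ATMG01390, 361350 to 363284) stood at 936 FPKM in cbe1 and 3816 FPKM in Col0, 4.08-fold lower (log2 −2.03, implied SE 0.36; q = 4.26e-06 in the authors' deposited table). The 5S rRNA rrn5 (ATMG01380, 361062 to 361179) stood at 1327 FPKM in cbe1 and 8949 FPKM in Col0 (log2 −2.75, implied SE 0.66; q = 0.00214 in the authors' deposited table). The intervals of the rRNAs overlapped each other, and rrn18 and rrn26 together held 72.9% of the summed FPKM of loci of 300 bases or more in cbe1 and 73.6% in Col0. Unlike the medians of the protein genes, that of the rRNAs stayed below 0 under TPM, at −0.69.

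Most tested RNAs of several classes that carry no poly(A) tail in their mature form also had lower values in cbe1 in the other genomes. Of 10 tested nuclear snRNAs, the RNAs of the spliceosome, 10 were lower in cbe1 and 6 were called, with a median log2 fold change of −2.24; 5 of the 10 loci were shared with other genes, and the 6 called ones span 551 to 8677 bases, longer than an snRNA, so their values may include other transcripts. Of 66 tested snoRNAs, which guide the modification of rRNA, 44 were lower, 3 were called and the median over the 51 with both values above 0 was −1.62. Of 38 tested plastid tRNAs, 23 were lower and 15 higher, 1 was called lower, and the median over the 25 with both values above 0 was −1.52. Over all 985 tested genes under 300 bases, 58.3% were lower in cbe1 and 0.914% were called lower. Nuclear microRNA loci were also mostly lower, 85 of 133 tested, with 0 called and a median of −0.74 over the 87 with both values above 0. Whether these classes differ from other short loci was not tested. The plastid 5S rRNA ATCG01160 stood at 1026 FPKM in cbe1 and 5764 FPKM in Col0 (log2 −2.49; q = 0.017 in the authors' deposited table). The plastid rRNA loci ATCG00960 and ATCG01170 stood at 9471 FPKM each in cbe1 and 21791 FPKM each in Col0 and were not called (log2 −1.20; q = 0.127 in the authors' deposited table). A further 4 plastid rRNA loci were marked HIDATA and had no usable value. AT2G01021, beside the nuclear rRNA genes, had a log2 fold change of −2.47. Nuclear protein-coding genes had a median of 0.19, and plastid protein-coding genes 0.16. The part of such RNA in the mitochondrial values was not tested.

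**Figure D2:**
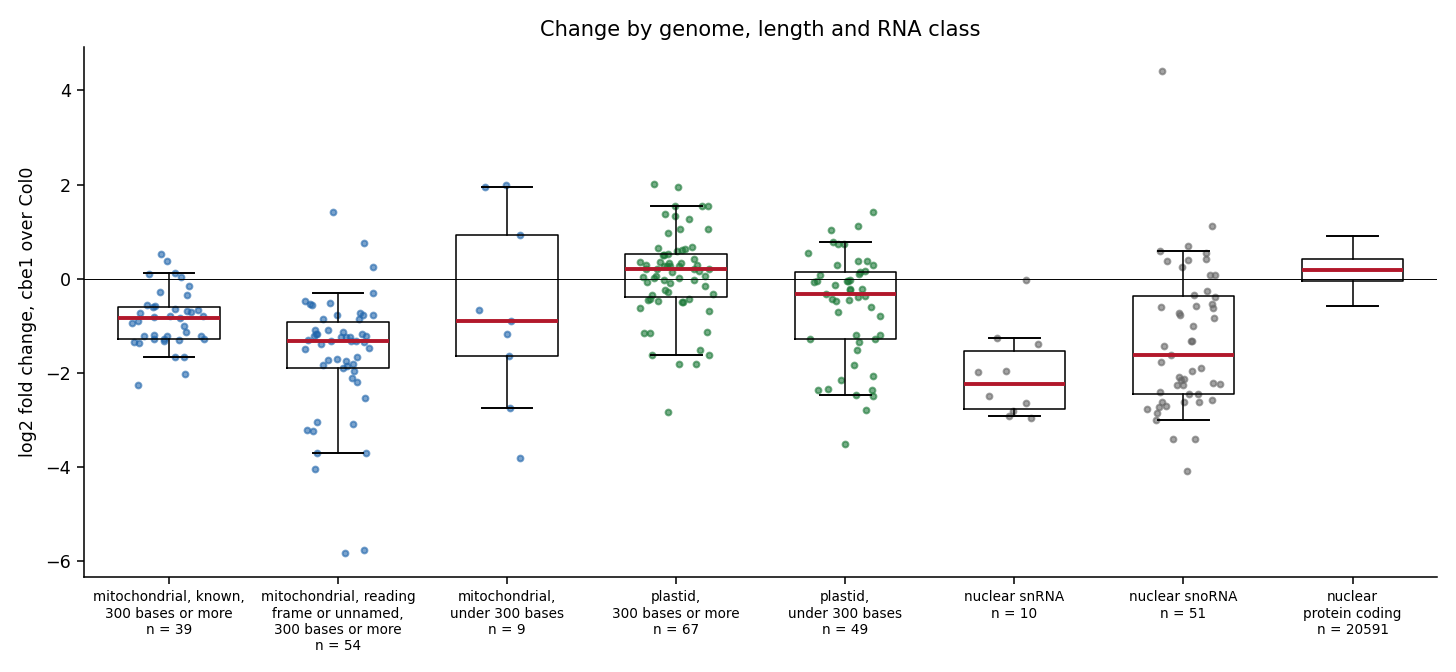
Log2 fold change (cbe1 over Col0, deposited FPKM) by genome, locus length and RNA class; points are genes with values above 0 in both groups, boxes run from the lower to the upper quartile, whiskers reach the 5th and 95th percentile and the red line is the median. Mitochondrial known genes of 300 bases or more (median −0.84) and reading frames (−1.32) lie between the snRNAs (−2.24) and nuclear protein-coding genes (0.19); TPM adds 1.57 to every point and leaves this order.

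The tRNAs, which carry amino acids to the ribosome, gave no call. Of 17 tRNA loci 14 were tested, 7 with the lower and 7 with the higher value in cbe1. Both loci of trnS(GCT) had lower values in cbe1. ATMG00330 stood at 1504 FPKM in cbe1 and 4700 FPKM in Col0 (log2 −1.64, implied SE 1.17), and ATMG00780 at 1422 FPKM in cbe1 and 3211 FPKM in Col0 (log2 −1.17, implied SE 1.27). The tRNA trnY(GTA) stood at 1143 FPKM in cbe1 and 2134 FPKM in Col0 (log2 −0.90, implied SE 1.62). These intervals all held 0. Of the tested members under 300 bases 8 were listed at 0 in a single group, 3 of them in cbe1 and 5 in Col0, so loci of this size gave values that a fold change does not describe. The tRNA loci with the largest changes had wide errors: trnfM(CAT) stood at 66.5 FPKM in cbe1 and 925 FPKM in Col0 (log2 −3.80, implied SE 6.13), and the 2 trnS(TGA) loci had log2 fold changes of 1.95 and 1.99 (implied SE 7.16 each). The error was as wide for trnS(GGA), which had a smaller log2 fold change of 0.94 (implied SE 6.62).

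The mitochondrial ribosomal protein genes all had lower values in cbe1, 7 of 7, with 2 called and a median log2 fold change of −1.27 (0.30 under TPM). For rps12, a protein of the small subunit (ATMG00980, 260224 to 260601), 8.68 FPKM in cbe1 stood against 22.1 FPKM in Col0 (log2 −1.35, implied SE 0.36; q = 0.00743 in the authors' deposited table). The other call was ATMG00090, on a locus of 3658 bases that holds both rpl16 and rps3, with 4.38 FPKM in cbe1 and 11.2 FPKM in Col0 (log2 −1.36, implied SE 0.25; q = 1.34e-05 in the authors' deposited table). Its partner on the same locus, ATMG00080, stood at 9.52 FPKM in cbe1 and 14.9 FPKM in Col0 and was not called (log2 −0.65, implied SE 0.41). Which of the identifiers is rpl16 and which rps3 was not settled, and reads of overlapping genes cannot be told apart. Changes of like size that missed the threshold were those of rps4 (0.846 FPKM in cbe1, 2.11 FPKM in Col0, log2 −1.32), rpl2 (0.913 and 2.20 FPKM in the same order, log2 −1.27) and rpl5 (2.14 FPKM in cbe1, 4.69 FPKM in Col0, log2 −1.14). The small-subunit gene rps7 was low in both groups, 0.639 FPKM in cbe1 and 0.940 FPKM in Col0, and its interval ran from −2.36 to 1.25.

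Complex I, the NADH dehydrogenase that feeds electrons into the respiratory chain, had 12 tested loci, 10 with the lower value in cbe1 and 2 called lower; their median log2 fold change was −0.79 (0.78 under TPM). The call of nad4 (ATMG00580, 161693 to 169674) rested on 2.49 FPKM in cbe1 and 6.06 FPKM in Col0 (log2 −1.29, implied SE 0.28; q = 3.32e-04 in the authors' deposited table). The nad2 locus ATMG01320 stood at 2.10 FPKM in cbe1 and 4.79 FPKM in Col0 (log2 −1.19, implied SE 0.36; q = 0.0289 in the authors' deposited table), on a locus it shares with ATMG01330. The genes nad1, nad2 and nad5 are split into parts that are transcribed apart and joined by trans-splicing. The other part of nad2, ATMG00285, stood at 1.76 FPKM in cbe1 and 3.04 FPKM in Col0 (log2 −0.79, implied SE 0.51). The parts of nad1 differed in level: ATMG01120 stood at 16.7 FPKM in cbe1 and 30.9 FPKM in Col0 (log2 −0.89), and ATMG01275 at 1.24 FPKM in cbe1 and 3.03 FPKM in Col0 (log2 −1.29). For nad5, ATMG00060 had 11.6 FPKM in cbe1 and 10.8 FPKM in Col0 (log2 0.10, implied SE 0.31), while ATMG00513 had 2.85 FPKM in cbe1 and 4.34 FPKM in Col0 (log2 −0.61, implied SE 0.29). The intervals of the nad5 parts overlap, from −0.51 to 0.72 for ATMG00060 and from −1.17 to −0.05 for ATMG00513. The subunit nad3 stood at 3.87 FPKM in cbe1 and 7.73 FPKM in Col0 (implied SE 0.58), and nad7, nad9 and nad4L had log2 fold changes of −0.78, −0.71 and −0.58; none of these was called. The second subunit with the higher value was nad6, with 3.55 FPKM in cbe1 and 2.46 FPKM in Col0 (log2 0.53, interval −0.40 to 1.46).

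A locus of 3830 bases (143219 to 147048) holds matR, the maturase that helps splice mitochondrial introns, and a part of nad1. One of its identifiers, ATMG00520, was called lower, with 0.724 FPKM in cbe1 and 2.30 FPKM in Col0 (log2 −1.67, implied SE 0.39; q = 0.00154 in the authors' deposited table). The other, ATMG00516, stood at 15.7 FPKM in cbe1 and 28.2 FPKM in Col0 and was not called (log2 −0.84, implied SE 0.42). Which identifier is matR was not settled either.

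Cytochrome genes had lower values in cbe1. The gene of cytochrome b, cob (ATMG00220, complex III), stood at 2.82 FPKM in cbe1 and 4.67 FPKM in Col0 and missed the threshold (log2 −0.73, implied SE 0.31; q = 0.167 in the authors' deposited table). Of the subunits of complex IV, cytochrome c oxidase, cox2 (ATMG00160, 40502 to 42628) was called, with 8.62 FPKM in cbe1 and 19.9 FPKM in Col0, 2.31-fold lower (log2 −1.21, implied SE 0.25; q = 1.40e-04 in the authors' deposited table). Both other subunits had about the same smaller change, with cox1 at 4.78 FPKM in cbe1 and 7.68 FPKM in Col0 (log2 −0.68, implied SE 0.24) and cox3 at 4.56 FPKM in cbe1 and 7.21 FPKM in Col0 (log2 −0.66, implied SE 0.25). Neither was called as deposited, and both were called once the authors' statistic was recentred on the median gene (adjusted p = 0.0116 for cox1 and 0.0224 for cox3).

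Complex V, the ATP synthase, had 4 of 6 loci with the lower value in cbe1 and 1 called, with a median of −0.31 (1.26 under TPM). The catalytic-head subunit atp1 (ATMG01190, 302166 to 303689) stood at 11.0 FPKM in cbe1 and 25.5 FPKM in Col0, 2.32-fold lower (log2 −1.21, implied SE 0.20; q = 1.73e-07 in the authors' deposited table). The ring subunit atp9, the most abundant of the known protein genes here, stood at 103 FPKM in cbe1 and 125 FPKM in Col0 (log2 −0.27, implied SE 0.18). Its interval, −0.63 to 0.09, did not overlap that of atp1, −1.60 to −0.83; the difference itself was not tested. Between them lay atp4, with 10.7 FPKM in cbe1 and 18.7 FPKM in Col0 (log2 −0.80, implied SE 0.27), and atp8, with 6.56 FPKM in cbe1 and 8.30 FPKM in Col0 (log2 −0.34, implied SE 0.38). The gene of the proton-channel subunit atp6 is present as 2 loci, ATMG00410 and ATMG01170, and neither was lower. ATMG00410 stood at 4.13 FPKM in cbe1 and 3.80 FPKM in Col0 (log2 0.12, interval −0.45 to 0.69), and ATMG01170 at 3.56 FPKM in cbe1 and 3.45 FPKM in Col0 (log2 0.05, interval −0.54 to 0.63). Both intervals lie above a log2 fold change of −1.

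The genes of cytochrome c maturation, which transport heme and attach it to the cytochrome, were expressed near 1 FPKM, and 2 of 5 were called. For ccmFN1 (ATMG00830), 0.421 FPKM in cbe1 stood against 1.33 FPKM in Col0 (log2 −1.66, implied SE 0.53; q = 0.0412 in the authors' deposited table). For ccmFC (ATMG00180), 0.935 FPKM in cbe1 stood against 2.17 FPKM in Col0 (log2 −1.21, implied SE 0.39; q = 0.0431 in the authors' deposited table). Likewise ccmB had a log2 fold change of −1.28 with an implied SE of 0.55, not called. The other two had wide intervals that held 0: ccmFN2 stood at 1.31 FPKM in cbe1 and 1.44 FPKM in Col0 (interval −1.33 to 1.05), and ccmC at 0.974 FPKM in cbe1 and 0.749 FPKM in Col0 (interval −0.88 to 1.64). The protein-transport gene mttB stood at 0.621 FPKM in cbe1 and 1.18 FPKM in Col0 (log2 −0.93, implied SE 0.58).

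**Figure D3:**
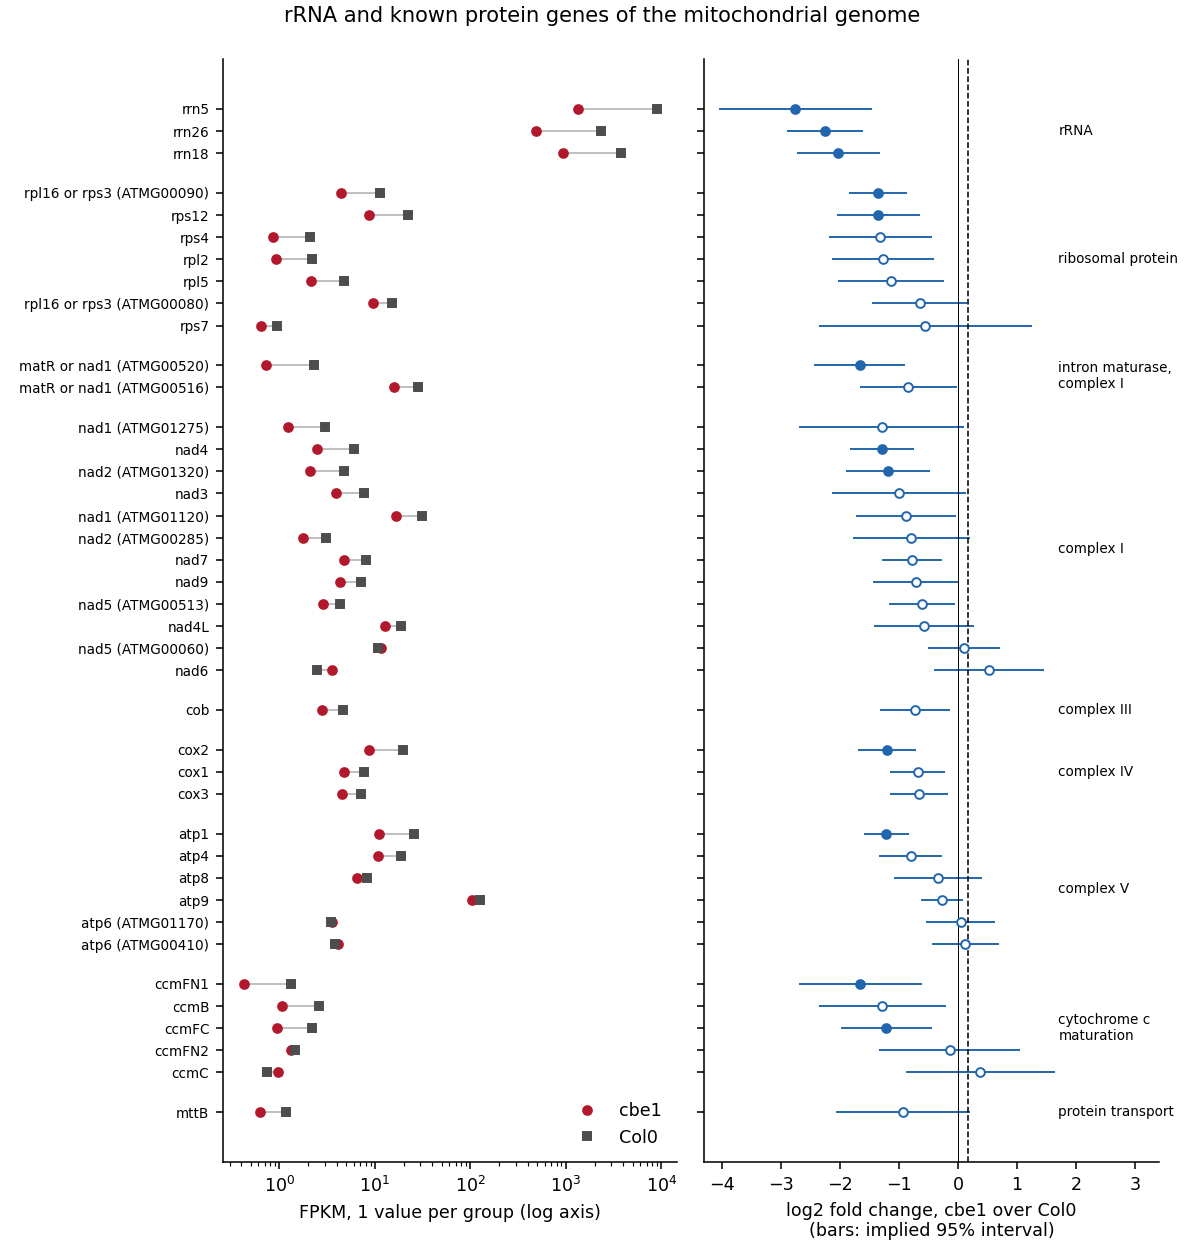
Left, FPKM of the mitochondrial rRNA and known protein genes in cbe1 (circles) and Col0 (squares) on a log axis; right, their log2 fold change (cbe1 over Col0) with the implied 95% interval, filled where called, with the median gene dashed at 0.17. The rRNAs lie lowest (−2.75 to −2.03) and nad6, ccmC, both atp6 loci and nad5 ATMG00060 lie above 0. TPM moves all points up by 1.57 and leaves the rRNAs, ccmFN1 and ATMG00520 below 0.

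The open reading frames and unnamed loci had a median log2 fold change of −1.32 (0.25 under TPM); 53 of 57 tested had the lower value in cbe1 and 6 were called lower. The change with the smallest q of any member was that of ORF107A (ATMG00030, 11918 to 12241), with 172 FPKM in cbe1 and 1407 FPKM in Col0, 8.20-fold lower (log2 −3.04, implied SE 0.19; q listed as 0 in the authors' deposited table). It begins 502 bases after the deposited end of rrn26. In the RefSeq annotation, where rrn26 is given as 3169 bases and not the deposited 2568, 185 of the 324 bases of ORF107A lie within rrn26, and its level and change were of the order of those of the rRNAs.

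The remaining called frames had log2 fold changes from −2.18 to −1.18. ORF149 (ATMG00660, 190104 to 190553) stood at 7.89 FPKM in cbe1 and 35.8 FPKM in Col0, 4.53-fold lower (log2 −2.18, implied SE 0.31; q = 6.62e-10 in the authors' deposited table), and ORF275 (ATMG00670) lies near it, with 0.565 FPKM in cbe1 and 2.11 FPKM in Col0 (log2 −1.90, implied SE 0.53). These lie 186 and 293 bases from a nad5 exon locus, ATMG00665, which was not tested. ORF294 (ATMG01200) lies 146 bases from atp1 and stood at 3.84 FPKM in cbe1 and 9.77 FPKM in Col0, with a log2 fold change of −1.35 where that of atp1 was −1.21. ORF291 (ATMG01280) lies 197 bases from the nad1 part ATMG01275, and the log2 fold changes were −1.24 and −1.29. ORF240A (ATMG00690) stood at 5.91 FPKM in cbe1 and 13.4 FPKM in Col0 (log2 −1.18, implied SE 0.28).

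Among the more abundant of these loci some were not called. The unnamed ATMG01000 stood at 3.71 FPKM in cbe1 and 6.73 FPKM in Col0 (log2 −0.86), on a locus shared with nad3, and ATMG01330 at 1.88 FPKM in cbe1 and 5.28 FPKM in Col0 (log2 −1.49, implied SE 0.78). The trnF pseudogene ATMG00790 stood at 1059 FPKM in cbe1 and 1674 FPKM in Col0 (log2 −0.66, implied SE 2.14), and a like one, ATMG00340, at 176 FPKM in cbe1 and listed at 0 in Col0. ATMG00360 was listed at 0 in cbe1 and stood at 216 FPKM in Col0, with p = 0.352 in the authors' deposited table. The changes of largest size were in frames near the detection limit and were not called, such as ATMG01400 (0.0116 FPKM in cbe1, 0.652 FPKM in Col0, log2 −5.82, implied SE 6.98), ORF120 (log2 −5.76), ATMG01060 (−4.04) and ORF122A (−3.71). ORF167 (log2 1.42, implied SE 2.08) and ORF117 (log2 0.25, implied SE 1.73) had higher values in cbe1 with errors of more than their size.

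The member with the higher value and an unadjusted p below 0.05 was ORF110A (ATMG00280, 77819 to 78151), with 28.5 FPKM in cbe1 and 16.9 FPKM in Col0 (log2 0.75, implied SE 0.37; p = 0.0425 and q = 0.276 in the authors' deposited table). A RefSeq note on its nuclear copy AT2G07732 describes the product of ATMG00280. It names the catalytic domain of the large chain of ribulose bisphosphate carboxylase, the carbon-fixing enzyme of the plastid. That copy was called higher, with 56.5 FPKM in cbe1 and 33.9 FPKM in Col0 (log2 0.73; q = 0.0158 in the authors' deposited table). The plastid gene of the large chain, ATCG00490 (rbcL), stood at 565 FPKM in cbe1 and 401 FPKM in Col0 (log2 0.50; q = 0.215 in the authors' deposited table). Whether reads are shared between these loci was not tested.

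Arabidopsis Col-0 carries a large insertion of mitochondrial DNA on chromosome 2, so that reads of many members could also be placed in the nucleus. Of 95 named members of 300 bases or more, 69 had a near-identical copy outside the mitochondrial genome (at least 99% identity over at least 95% of the gene), with the best match of each on chromosome 2. A single match was kept per gene name, so the parts of nad1, nad2 and nad5 and the 2 loci of atp6 were not measured separately. The match was sought for the RefSeq gene, which can be shorter than the deposited locus, as for atp9 (225 against 504 bases). The tested members with such a copy (52) had a median log2 fold change of −1.16 and 7 calls, and those without (24) a median of −1.30 and 8 calls. The difference between these medians was not tested. Members counted as without such a copy include rrn18, rrn26 and ORF107A, and also nad4, with a match of 99.9% identity over 87.2% of its length on chromosome 2. On the nuclear side, 41 annotated copies were tested together with their mitochondrial partner; 38 of these were lower in cbe1, 8 of them called, and 1 was called higher, with a median of −1.05 against −1.18 for their partners. The copy of atp1, AT2G07698, stood at 9.24 FPKM in cbe1 and 21.8 FPKM in Col0, close to the values of atp1 itself, and that of rps12, AT2G07675, at 8.85 FPKM in cbe1 and 22.5 FPKM in Col0. The sources used here do not say how reads with several matches were counted, so nuclear and mitochondrial transcripts of these genes are uncertain as separate values.

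The 35 members that were not tested were at or near 0. Of these 30 had a value above 0 in at least 1 group, up to 0.218 FPKM in cbe1 and 0.416 FPKM in Col0, and 27 of the 30 were lower in cbe1; 31 of the 35 were reading frames or unnamed. The most abundant were ORF153A (0.218 FPKM in cbe1, 0.359 FPKM in Col0), ORF215B (0.140 and 0.340 FPKM in the same order), the pair ORF152A and ORF152B (0.0644 FPKM in cbe1 and 0.416 FPKM in Col0 each) and the unnamed ATMG00320 (0.133 FPKM in cbe1, 0.345 FPKM in Col0).

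Genes of the nucleus whose products work in the mitochondrion lay on the other side of 0. Of 48 such genes in 9 lists 45 were tested; 42 had the higher value in cbe1, 6 were called higher and 0 lower, with a median log2 fold change of 0.37. At an unadjusted p below 0.05, 22 were higher and 0 lower. Over all 22303 tested genes 31.1% had the lower value in cbe1, 3.31% were called higher and 12.5% were higher at that unadjusted p. The median of all tested genes was 0.18, and after the statistic was recentred on the median gene a single call was left, that of the import chaperone MTHSC70-2 (AT5G09590). It stood at 10.9 FPKM in cbe1 and 5.80 FPKM in Col0 (log2 0.91, implied SE 0.20; q = 8.16e-04 in the authors' deposited table). The related mtHsc70-1 (AT4G37910) stood at 20.9 FPKM in cbe1 and 12.9 FPKM in Col0 (log2 0.70; q = 0.00619 in the authors' deposited table). The alternative oxidase AOX1A (AT3G22370), which takes electrons past the cytochrome pathway and is known to respond to mitochondrial stress, stood at 24.98 FPKM in cbe1 and 16.2 FPKM in Col0 (log2 0.63; q = 0.0268 in the authors' deposited table). Its list, of alternative respiration and stress markers, had 1 call of 5 tested, with 4 genes higher in cbe1 and 1 lower. NDB2, an external NADH dehydrogenase, had a log2 fold change of 0.77 without a call. Also without a call were AOX1C (log2 1.27, implied SE 1.04), NDA1 (log2 0.31, implied SE 0.20) and AT2G21640 (log2 −0.19, implied SE 0.41). AOX1A itself was not called after recentring. A stress response of the mitochondria was not tested.

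Subunits of the same complex thus had FPKM medians on opposite sides of 0 by genome of origin, a split of sign that TPM removes while the gap stays. The nuclear side is a list of chosen genes, not every nuclear subunit. The median of all tested genes was itself 0.18, and no listed nuclear subunit stayed called after recentring. For complex I the mitochondrial median was −0.79 (12 loci) and the nuclear one 0.28 (6 genes), with EMB1467 (AT5G37510) called at 30.4 FPKM in cbe1 and 20.1 FPKM in Col0. For complex IV they were −0.68 (3 genes) and 0.38 (3 genes), and for complex V −0.31 (6 loci) and 0.48 (6 genes). The nuclear beta-subunit gene AT5G08680 was called, with 49.9 FPKM in cbe1 and 34.3 FPKM in Col0 (log2 0.54; q = 0.0424 in the authors' deposited table), whereas its mitochondrial partner in the catalytic head, atp1, fell. SDH1-1 (AT5G66760) of complex II, whose tested subunits are nuclear, was called too, with 27.5 FPKM in cbe1 and 18.2 FPKM in Col0 (log2 0.60). The 2 genes of mitochondrial RNA polymerases had log2 fold changes of 0.39 (AT1G68990) and 0.36 (AT5G15700), neither called. Of 6 genes of mitochondrial RNA decay and genome upkeep none was called, the largest changes being those of the recombination-surveillance gene MSH1 (1.49 FPKM in cbe1 and 0.768 FPKM in Col0, log2 0.96, implied SE 0.32; q = 0.0521 in the authors' deposited table) and of AT5G14580 (log2 0.92), which codes for a polynucleotide phosphorylase that trims mitochondrial RNA.

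**Figure D4:**
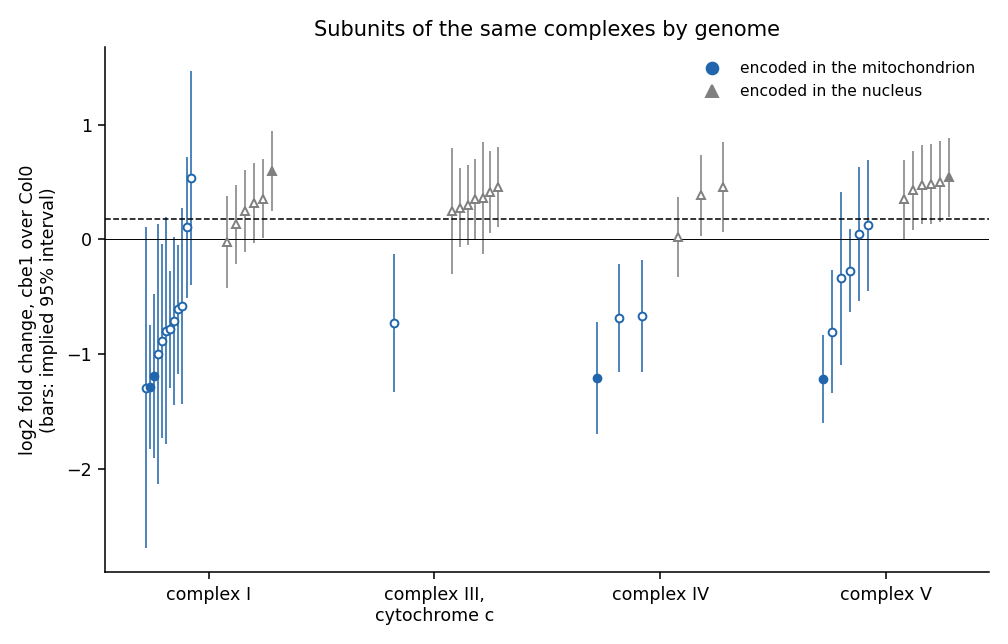
Log2 fold change (cbe1 over Col0) with the implied 95% interval for subunits of complexes I, III, IV and V, filled where called. Circles are encoded in the mitochondrion, and triangles are chosen genes encoded in the nucleus. Medians were −0.79 and 0.28 in complex I, −0.68 and 0.38 in complex IV and −0.31 and 0.48 in complex V; TPM adds 1.57 to each, which brings the mitochondrial medians above 0 and leaves the gap.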

How the data were processed

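TopHat, Cuffdiff and the build TAIR10 are named, without versions, in the submitters' processing notes. The authors' deposited table gives 1 FPKM value per gene and group, and, per the file headers, a test statistic score, a p-value and a q-value. No values per library were used, so the depth and the spread between replicates are unknown, and all tests are the authors' own. The sources used here do not state the scaling between libraries, the use of strand or the handling of multiply mapped reads. The p-value departed from a two-sided normal tail of that statistic by at most 2.74e-06, and the q-value from Benjamini-Hochberg values of the tested genes by at most 2.46e-06.

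The rows named ATMG, the lists, the length threshold of 300 bases and the split into known genes and reading frames were chosen with earlier results of these data known. Every called member and tested known protein gene and rRNA was named, as were the 10 most abundant reading frames and the 5 largest and smallest changes. The RefSeq mitochondrial sequence differs from that of TAIR10, so names come from loci that share length and spacing with RefSeq genes (109), from product notes of nuclear copies (7) or from loci holding as many RefSeq genes (4); 26 stayed unnamed. Copies were sought with BLAST 2.17.0. Recentring subtracts the median log2 fold change from each gene before the normal p is recomputed and adjusted over all tested genes. The recentring was tested on simulated data, the naming and the search for copies were not. Alternatives were q below 0.01, log2 fold change of at least 1, minimum FPKM, pseudocounts, TPM, recentring, other length thresholds and unshared loci. Python 3.11.15 with numpy 2.4.6, pandas 2.3.3, scipy 1.17.1 and matplotlib 3.10.9 was used.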

Additional observations from a re-analysis of the deposited data

How the results depend on the processing

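No paired analysis was possible because the deposited table holds group values, with none per library; for the same reason no library could be left out. The count of 18 mitochondrial genes called lower was 13 at q below 0.01, 17 at a mean of at least 1 FPKM, 26 after recentring on the median gene, and 14 without rRNA, tRNA and ORF107A members, an alternative chosen after seeing the data; the count called higher stayed at 0 under these. Recentred on the median mitochondrial gene, 5 mitochondrial genes were lower and 11 higher, and over all genes 50 were lower and 18500 higher. The calls over all genes, 363 lower and 738 higher, came to 207 and 355 at q below 0.01, 146 and 240 at a log2 fold change of at least 1, and 666 and 296 recentred on the median gene. Rescaling to TPM turned each median: 0.37 for all tested mitochondrial genes, 0.67 under 300 bases, 0.36 at 300 bases or more, 0.68 for known genes and 0.25 for reading frames; by construction it adds 1.57 to every gene. With log2(FPKM + 1) the median of all tested members was −0.66, with log2(FPKM + 0.1) it was −1.15, and at a mean of at least 10 FPKM it was −0.89. Of 78 recomputed values 63 stayed within the median implied SE (medians) or 1.5 times (counts). The range for medians is wide, being the typical error of a single gene, and −0.66 with log2(FPKM + 1) fell within it. Counts that stayed at 0 were included as well. The depth is unknown; the median implied SE was 1.55 for tested loci of 300 bases or more below 1 FPKM and 2.14 for loci under 300 bases, against 0.42 for known genes.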

Other observations

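Some members at distant positions had nearly the same values in both groups, which bears on how many separate measurements the 111 tested loci hold. ORF139A and ORF139B stood at 1.36 FPKM each in cbe1 and 3.14 FPKM each in Col0. ORF106A and ORF106G stood at 0.337 and 0.332 FPKM in cbe1 and at 1.19 FPKM each in Col0. The unnamed ATMG00050 and ORF313 stood at 1.05 FPKM each in cbe1 and 2.47 FPKM each in Col0. The tRNA loci ATMG00250 and ATMG00460 were both listed at 924.8 FPKM in Col0, where in cbe1 the first stood at 66.5 FPKM and the second at 0.

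Lower values in cbe1 prevailed in each of these bands of expression among tested loci of 300 bases or more. From 1 to under 3 FPKM, 24 of 24 tested loci were lower in cbe1, with a median log2 fold change of −1.25; from 3 to under 10 FPKM, 18 of 21 were lower, with a median of −0.78; at 10 FPKM or more, 14 of 16 were lower, with a median of −0.89. Under TPM, 28 of the 102 members with values in both groups stayed below 0, and the 3 rRNAs were among them.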
